A study of Mus musculus with 6 samples.

Results

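Glia-like supporting cell markers are genes that supporting cells (SCs) of the organ of Corti share with glia of the nervous system. The 9 genes described here, Fabp7, Slc1a3, Gfap, Glul, S100a1, S100b, Aqp4, Bace2 and Emid1, were chosen by name, with no threshold on any measured value, from 24421 gene symbols in the count table. They were read in 6 RNA-sequencing libraries of cochlear explants from mice at postnatal day 2 (P2), 3 control and 3 neomycin. The labels give the cells of every library as wild type and name no strain or litter. Explants of both groups were cultured, with an interval of 12 h before the injury and a further 5 days with 10 μM EdU after it. The neomycin group received 1 mM of this aminoglycoside, which kills hair cells (HCs), for 6 h. The labels repeat that protocol text for all 6 samples, so the control group was taken from the treatment label alone. Each library was a pool of 6 to 8 cochleae from which stria anlage, modiolus and tectorial membrane had been taken off, and the labels do not say whether the pools shared litters or dishes. The p-values therefore measure the spread between these pools, which may be partly technical.

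SCs surround the HCs and hold them in place, and those next to the inner HCs, the inner phalangeal and border cells, wrap HC and nerve endings much as astrocytes wrap synapses. Like glia they take up glutamate, convert it to glutamine, buffer ions and water and bind calcium, and in the neonatal cochlea some of them can divide or become HCs. Markers of this kind are not exclusive to SCs. Schwann cells and satellite glia of the auditory nerve also use S100b, Fabp7 and Glul.

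Total counts per library lay between 50471116 and 66068108. Levels are in CPM (a count relative to the TMM-adjusted size of its library) and are given as mean ± SD of 3 libraries a group. Log2 fold changes are neomycin over control with the standard error (SE) from edgeR's quasi-likelihood test across 15988 genes. A gene passed the test at a Benjamini-Hochberg adjusted p under 0.05, and was called differentially expressed if its fold change was also over 1.5. The HC markers went the way the labels imply: 22 of 25 fell and none rose by the test, and their median was -1.44 on the log2 scale. That list was written with earlier results of these data known, so it is no independent check of the labels. Slc26a5, which encodes the outer HC motor prestin, fell from 25.8 ± 2.33 to 1.61 ± 0.28 CPM.

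All 9 glia-like markers were detected in every library and entered the test. After neomycin S100b and Bace2 rose 1.845-fold and 1.968-fold, S100a1 and Fabp7 rose 1.374-fold and 1.232-fold, Glul fell to 0.853 of its control level, and Gfap, Slc1a3, Aqp4 and Emid1 did not pass the test. Thus 4 of 9 passed as higher, against 12.9% of all genes tested, and 1 of 9 as lower, against 16.1%. With the fold threshold 2 of 9 were higher, against 2.24% of all genes, and 0 of 9 lower, against 6.6%. For 5 of the 9 genes the control and neomycin libraries did not overlap, which was so for 43.5% of all genes. On the log2 scale the markers had a median change of 0.30, beside -0.00408 for all genes tested. In explant RNA, fewer cells of a type and less RNA per cell cannot be told apart, so each change below is one of the pooled tissue.

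**Figure D1:**
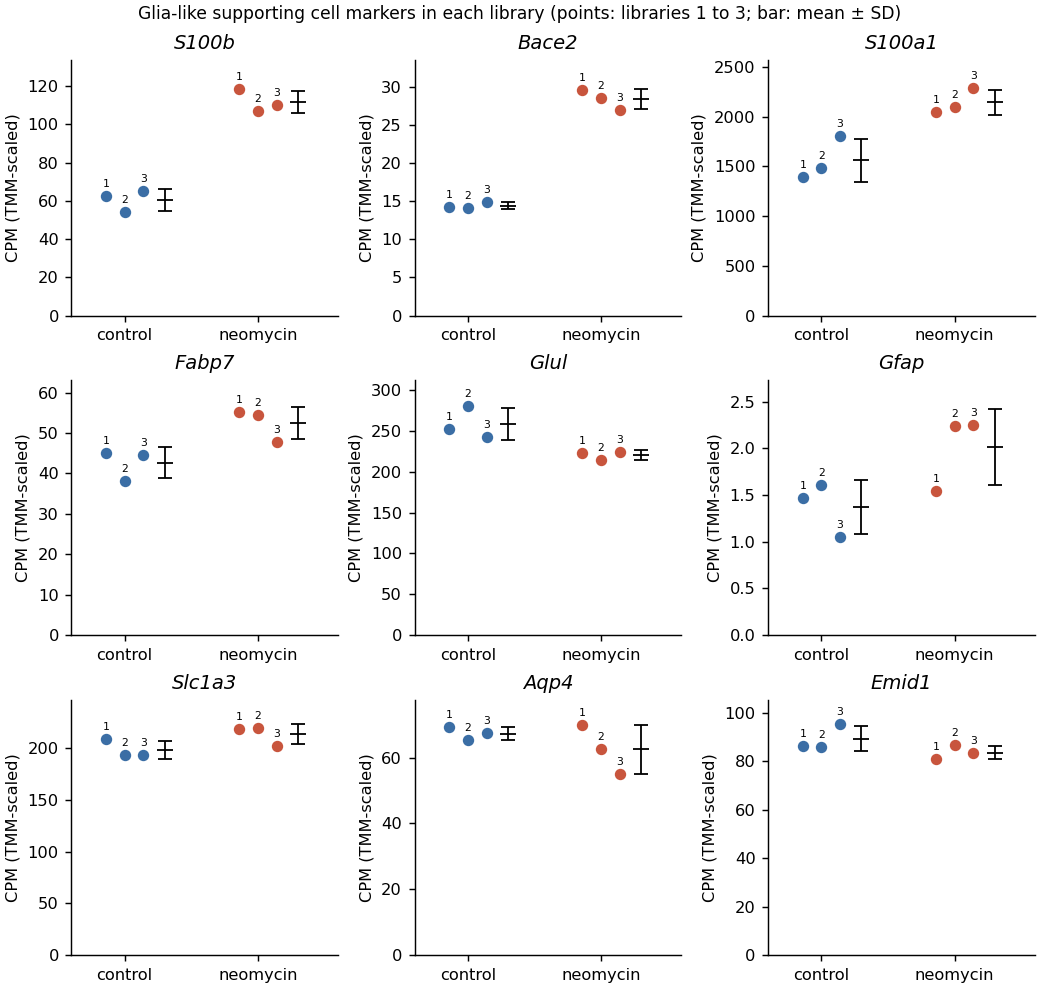
CPM of each of the 9 markers in each library (points, numbered by library) with the mean ± SD beside them, control in blue and neomycin in red, each axis starting at 0. The groups stand apart for S100b, Bace2, S100a1, Fabp7 and Glul, and overlap for Gfap, Slc1a3, Aqp4 and Emid1.

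The length of a gene moved with its change in these libraries. Among the 1365 tested genes with under 1.5 kb of exon, 32.8% passed as higher and the median change was 0.31 on the log2 scale. In the 8484 genes with over 4 kb the median was -0.11 and 5.88% passed as higher. S100a1 (0.69 kb), Fabp7 (1.25 kb) and S100b (1.48 kb) are short, whereas Bace2 (7.89 kb) and Slc1a3 (8.54 kb) are long. Each marker is therefore given also from a fit in which the trend on exon length had been removed from every library. Under that fit 5 markers again passed, but not the same ones: S100b, Bace2 and Slc1a3 higher, and Glul and Emid1 lower. What lies behind the length trend was not tested.

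**Figure D2:**
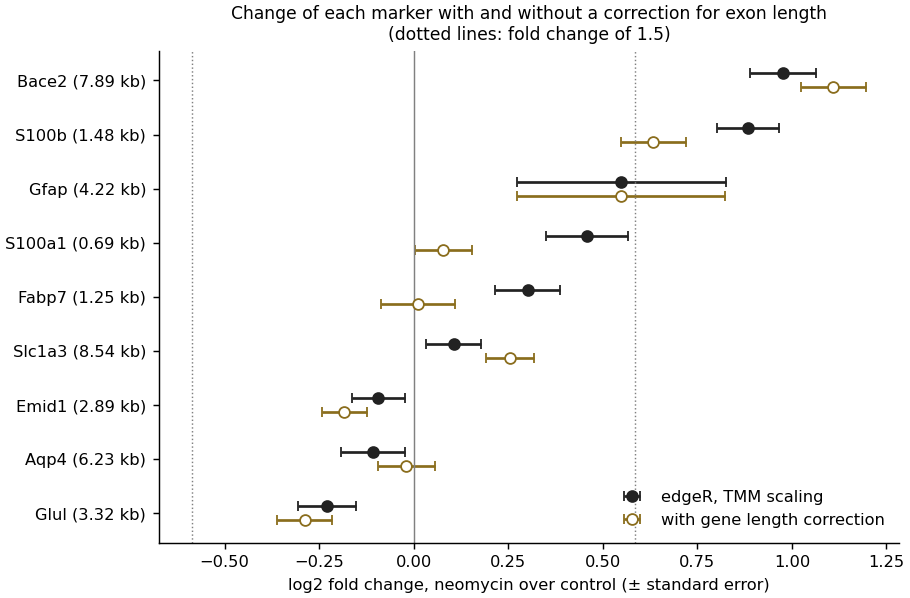
Log2 fold change of each marker, neomycin over control, with its SE (n = 3 libraries a group), from the fit with TMM scaling (filled) and from the fit with the length trend removed (open); exon length stands in brackets and dotted lines mark a fold change of 1.5. S100b and Bace2 lie to the right of the dotted line under both fits, while S100a1 and Fabp7 lie near 0 once the length trend is removed.

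S100b and S100a1 encode small EF-hand proteins that bind calcium, and S100b is the classical S100 protein of astrocytes and Schwann cells. Gene positions are those of the mm10 build. S100b (ENSMUSG00000033208.7, chr10:76253853-76261159, plus strand, 3 exon blocks) was at 62.6, 54.0 and 65.1 CPM in control libraries 1, 2 and 3 and at 118, 107 and 110 CPM in neomycin libraries 1, 2 and 3. The lowest neomycin library was 1.64 times the highest control library, so the groups stood well apart. The means were 60.6 ± 5.82 and 112 ± 5.89 CPM, and the log2 fold change was 0.88 (SE 0.08, edgeR, adjusted p = 2.02e-05). Removal of the length trend left it at 0.63 (SE 0.09, adjusted p = 0.000262), still past both thresholds. Dip2a overlaps S100b on the opposite strand with 0 shared exonic bases.

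S100a1 (ENSMUSG00000044080.9, chr3:90511034-90514392, minus strand, 3 exon blocks) was the most abundant marker and ranked 39 of all genes tested by mean CPM. It was at 1391, 1487 and 1804 CPM in the control libraries and 2050, 2093 and 2287 CPM in the neomycin libraries. Every neomycin library was higher than every control library, yet the highest control library came within a factor of 1.14 of the lowest neomycin library. The log2 fold change was 0.46 (SE 0.11, edgeR, adjusted p = 0.00887). Without control library 2 the adjusted p was 0.054. In the fit without the length trend S100a1 did not pass, at 0.08 (SE 0.07, adjusted p = 0.492).

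The sequence just before the transcription start is shown for S100b, S100a1 and Fabp7, the markers with a promoter window in RefSeq (GRCm38.p6) that passed as higher. Windows were read for 7 of the 9 markers, not for Bace2 and Aqp4. RefSeq places the start of S100a1 62 bases and that of Fabp7 42 bases inside the GENCODE gene positions given here. The window of 250 bases before the RefSeq start is therefore printed only as far as the GENCODE gene, 5′ to 3′ on the strand of the gene. The stretches are chr10:76253586-76253835 for S100b (plus strand, 250 bases), chr3:90514393-90514580 for S100a1 (minus strand, 188 bases) and chr10:57784673-57784880 for Fabp7 (plus strand, 208 bases). Capitals mark matches, on either strand, to the RBPJ core TGGGAA (RBPJ is the DNA-binding factor of Notch signaling) or to the CCAAT box CCAAT.
S100b: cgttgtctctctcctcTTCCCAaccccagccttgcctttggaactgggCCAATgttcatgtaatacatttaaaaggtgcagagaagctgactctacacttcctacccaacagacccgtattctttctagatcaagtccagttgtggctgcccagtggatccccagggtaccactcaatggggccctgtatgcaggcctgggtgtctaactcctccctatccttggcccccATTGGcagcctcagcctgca
S100a1: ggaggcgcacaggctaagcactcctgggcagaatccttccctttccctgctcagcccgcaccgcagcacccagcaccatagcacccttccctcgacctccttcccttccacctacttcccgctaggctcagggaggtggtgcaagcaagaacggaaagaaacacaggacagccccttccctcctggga
Fabp7: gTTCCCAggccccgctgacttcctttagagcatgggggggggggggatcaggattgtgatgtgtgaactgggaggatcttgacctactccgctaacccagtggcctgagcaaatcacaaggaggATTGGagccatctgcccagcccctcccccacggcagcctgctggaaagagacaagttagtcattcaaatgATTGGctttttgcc

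Both S100b and Fabp7 held 1 RBPJ core, its first base 234 and 249 bases before the RefSeq start, and 2 CCAAT boxes. These matches are common: in the same windows, which run a further 50 bases past the start, the RBPJ core occurred in 25.6% and the CCAAT box in 37.4% of 32851 mouse promoters. Neither of the 2 occurred before S100a1. The TEAD core GGAATG (14.7% of promoters), the SOX core ACAAAG (18.7%), the TATA box TATAAA (13.6%) and the GC box GGGCGG (35.7%) had no match in any of the 3 windows. No match overlapped another. S100b and Fabp7 thus shared the same pair of motifs, while S100a1, with a GC content of 61.0% against 53.7% and 54.0%, held none of the 6. The pair was not particular to markers that rose. The RBPJ core also occurred for Gfap and Emid1, which did not pass the test. The CCAAT box also occurred for Slc1a3 (3 matches), which did not pass, and for Glul (2 matches), which fell. Of the 7 markers read, only Emid1 held a TEAD core or a SOX core.

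Of 15 further S100 genes, 11 were tested, and 4 passed as higher and none as lower. The median log2 fold change was 0.26, and 0.61 without control library 3, 0.40 without neomycin library 1, 0.51 without neomycin library 2 and 0.125 without neomycin library 3. S100a10, the partner of annexin A2, was at 146, 158.5 and 186 CPM in control and 244, 259 and 262 CPM after neomycin, with no overlap (log2 fold change 0.64, SE 0.09, edgeR, adjusted p = 0.000422). S100a6 rose from 76.6 ± 8.24 to 119 ± 14.8 CPM, S100a13 from 154 ± 30.4 to 232 ± 35.4 CPM and S100a11 from 253 ± 18.3 to 300.4 ± 21.8 CPM. S100a10, S100a6 and S100a13 were also past the fold threshold. None of the family was with scaling by total counts or without control library 1, and 1 was without neomycin library 2. When neomycin library 3 was left out, 1 gene of the family passed as lower. These genes are short too. In the fit without the length trend S100a6 (0.37, adjusted p = 0.00318) and S100a10 (0.35, adjusted p = 0.00189) still passed, S100a11 (-0.17, adjusted p = 0.125) and S100a13 (0.22, adjusted p = 0.09) did not, and the median of the family was 0.03. Among all tested S100 genes S100b was the 1 past both thresholds in that fit.

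Fabp7, the brain fatty acid binding protein of radial glia and satellite glia (ENSMUSG00000019874.11, chr10:57784881-57788450, plus strand, 4 exon blocks), was at 45.0, 38.2 and 44.7 CPM in control and at 55.2, 54.4 and 47.9 CPM after neomycin. The groups did not overlap, but the gap between the nearest libraries was only a factor of 1.07. Its log2 fold change was 0.30 (SE 0.09, edgeR, adjusted p = 0.0221). Fabp7 did not pass without control library 2 (0.23, adjusted p = 0.0981), without neomycin library 1 (0.26, adjusted p = 0.0611) and without neomycin library 2 (0.28, adjusted p = 0.0982), as well as with scaling by total counts (0.23, adjusted p = 0.0751). Once the length trend was removed, Fabp7 stood at 0.01 (SE 0.10, adjusted p = 0.948).

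Among the other fatty acid binding proteins 8 of 14 were tested, with 4 higher and 1 lower by the test and a median of 0.51. Fabp3, the heart form, rose from 18.95 ± 0.60 to 27.2 ± 1.91 CPM (log2 fold change 0.52, adjusted p = 0.00134), but stood at 0.16 (adjusted p = 0.245) without the length trend. Fabp5, the epidermal form that glia also use, was at 97.2 ± 11.02 and 84.8 ± 12.6 CPM and did not pass (adjusted p = 0.203). Fabp4, which marks adipocytes, macrophages and small-vessel endothelium, fell from 20.4 ± 2.18 to 2.61 ± 0.22 CPM (log2 fold change -2.97, SE 0.13, adjusted p = 5.05e-08), the only member of the family lower by the test. Rbp7, a retinol binding relative, rose from 1.02 ± 0.46 to 2.72 ± 0.44 CPM. In that fit 2 of the family passed as higher and the median was 0.23. Pmp2, the myelin form, was too low to be tested.

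Slc1a3 and Glul act in sequence on glutamate: the transporter GLAST brings it into the cell and glutamine synthetase turns it into glutamine. Slc1a3 (ENSMUSG00000005360.14, chr15:8634124-8710764, minus strand, 13 exon blocks) was at 209, 193 and 193 CPM in control and 218, 219.5 and 202.5 CPM after neomycin. The ranges overlapped, since control library 1 lay above neomycin library 3. The log2 fold change was 0.11 with a 95% interval from -0.05 to 0.26 (edgeR, adjusted p = 0.298). With the length trend removed it was 0.26 (SE 0.06, adjusted p = 0.0111), so this long gene passed as higher in that fit.

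Glul (ENSMUSG00000026473.15, chr1:153899944-153909723, plus strand, 10 exon blocks) was at 252, 280.5 and 242.5 CPM in control and 223, 214 and 224.5 CPM after neomycin. Every neomycin library was lower than every control library, by a factor of 1.08 between the nearest. Glul was the 1 marker to fall, with a log2 fold change of -0.23 (SE 0.08, edgeR, adjusted p = 0.0423). Glul did not pass when any library but control 3 was left out, with adjusted p-values of 0.0635 without control 1, 0.203 without control 2, and 0.0719, 0.169 and 0.0957 without neomycin 1, 2 and 3. Removal of the length trend left Glul lower, at -0.29 (adjusted p = 0.0121). Teddm2 on the opposite strand shares 116 exonic bases with Glul, which matters only if counting was unstranded. Mir8114 on the same strand shares 93, whatever the strand setting. Per kb of exon, Glul stood at 3.10, 3.73 and 3.22 times Slc1a3 in the control libraries and at 2.62, 2.50 and 2.85 times after neomycin, so the ratio of enzyme to transporter was lower in every neomycin library.

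Around these genes, 17 others that carry or convert glutamate and glutamine were tested, and 8 passed as lower and none as higher (median log2 fold change -0.45). In the fit without the length trend 6 passed as lower and 1, Slc1a2, as higher, and the median was -0.30. The glutamine carrier Slc38a1 fell from 78.6 ± 5.09 to 59.4 ± 3.54 CPM but did not pass with the length trend removed (adjusted p = 0.143), whereas the neutral amino acid carrier Slc1a5 (15.4 ± 1.44 to 9.82 ± 1.20 CPM) passed in both fits (adjusted p = 0.0024 and 0.00168). Slc17a8, the vesicular glutamate transporter of inner HCs, fell from 11.1 ± 1.00 to 6.01 ± 0.85 CPM and belongs to the HC list as well. Slc1a2, the other glial glutamate transporter, was at 28.1 ± 3.64 and 31.2 ± 2.94 CPM (adjusted p = 0.309), and had a log2 fold change of 0.38 (SE 0.08, adjusted p = 0.00546) without the length trend. Glud1 was at 109 CPM in both groups.

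Aqp4 encodes the water channel of astrocyte endfeet and of SCs on the outer side of the organ of Corti (ENSMUSG00000024411.10, 11 exon blocks). It was at 69.2, 65.4 and 67.4 CPM in control and 69.9, 62.5 and 55.2 CPM after neomycin. Neomycin library 1 was above all controls and neomycin library 3 below them, so the neomycin group spanned the control group. The log2 fold change was -0.11 with a 95% interval from -0.29 to 0.08 (edgeR, adjusted p = 0.371), and -0.02 with the length trend removed. Of 7 other aquaporins tested, 2 passed as lower and none as higher (median -0.37, and -0.23 without neomycin library 1). Aqp1 was at 235, 307 and 323.5 CPM in control and 205, 220 and 216 CPM after neomycin (adjusted p = 0.00974). Aqp11 fell from 49.7 ± 4.50 to 32.95 ± 2.40 CPM (adjusted p = 0.000556). Aqp5 was at 25.6 ± 3.19 and 19.8 ± 3.59 CPM (adjusted p = 0.0516) and passed as lower without the length trend (adjusted p = 0.0148). Without control library 2, 1 aquaporin passed as lower.

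Gfap, the intermediate filament protein that reactive astrocytes accumulate, was the rarest marker (ENSMUSG00000020932.14, chr11:102887336-102900912, minus strand, 11 exon blocks). It had 101, 84 and 59 counts in control and 82, 132 and 121 counts after neomycin. As CPM this was 1.46, 1.61 and 1.05 against 1.54, 2.24 and 2.25, so neomycin library 1 lay within the control range. The log2 fold change was 0.55 (SE 0.28, edgeR, adjusted p = 0.155). Its 95% interval ran from -0.05 to 1.15 and so held both no change and a rise of more than the fold threshold. With the length trend removed Gfap again did not pass, at 0.55 (SE 0.275, adjusted p = 0.169). Among 9 other class III and IV filament genes, 5 passed as lower and 1, Des, as higher (median -0.51, and -0.55 with the length trend removed). Vim, which SCs and glia share, was at 1052 ± 34.6 and 1025 ± 28.98 CPM, and Nes was at 97.9 ± 11.9 and 90.8 ± 5.68 CPM. The genes with the largest falls, Ina and Nefh, are neuronal. Without control library 1, control library 2 or neomycin library 3, 3 filament genes passed as lower.

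Bace2 encodes a membrane aspartyl protease related to the beta-secretase Bace1 (ENSMUSG00000040605.7, chr16:97356742-97442936, plus strand, 9 exon blocks). It was at 14.2, 14.1 and 14.9 CPM in control and at 29.6, 28.6 and 27.01 CPM after neomycin. The replicates were tight, and the lowest neomycin library was 1.81 times the highest control library, the widest gap of the 9 markers. The log2 fold change was 0.98 (SE 0.09, edgeR, adjusted p = 1.35e-05) and 1.11 (SE 0.09, adjusted p = 2.17e-06) with the length trend removed. Over all 14 alternative settings it stayed between 0.91 and 1.11. Of the 9 markers Bace2 had the largest change, and unlike S100b it is a long gene, of the class whose median change was below 0.

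The relatives and partners of Bace2 were mostly lower or did not pass. Bace1 was at 81.9, 77.1 and 66.8 CPM in control and 59.9, 56.9 and 50.9 CPM after neomycin, lower in every neomycin library (log2 fold change -0.43, SE 0.09, edgeR, adjusted p = 0.00444). The substrate App (2039 ± 125 and 1903 ± 166 CPM) and the gamma-secretase subunit Ncstn (171 ± 8.28 and 170.3 ± 15.8 CPM) did not pass. In all, 1 of the 11 genes passed as higher and 4 as lower, with none past the fold threshold and a median of -0.15. The 4 became 1 without control library 2, neomycin library 2 or neomycin library 3, and 2 without control library 3, while the 1 higher gene did not pass with the length trend removed or without control library 1 or 2 or neomycin library 2 or 3.

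Emid1 encodes a secreted protein with an EMI domain and collagen repeats (ENSMUSG00000034164.17, chr11:5106265-5152257, minus strand, 20 exon blocks). It was at 86.5, 86.1 and 95.2 CPM in control and 81.0, 86.6 and 83.4 CPM after neomycin. The ranges met, since neomycin library 2 was above control libraries 1 and 2. The log2 fold change was -0.09 (95% interval -0.25 to 0.06, edgeR, adjusted p = 0.344), and -0.18 (SE 0.06, adjusted p = 0.0423) with the length trend removed. Among 6 other EMI domain genes, Emilin3 rose from 5.01 ± 1.00 to 9.97 ± 1.94 CPM (adjusted p = 0.00208) and Col26a1, the closest relative of Emid1, from 49.4 ± 9.10 to 72.5 ± 4.59 CPM (adjusted p = 0.00346). Emilin1 (96.6 ± 15.9 and 98.8 ± 3.34 CPM) and Emilin2 (228 ± 17.1 and 236 ± 30.8 CPM) did not pass, and the median of the 6 was 0.04, with either sign over the alternatives (-0.03 to 0.21).

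**Figure D3:**
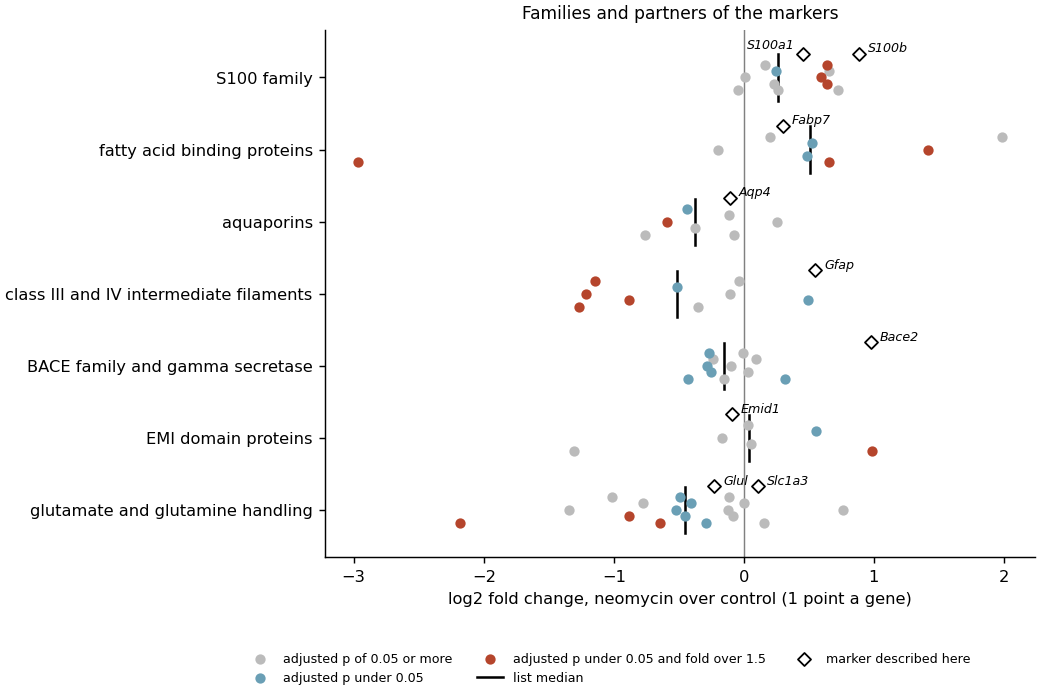
Log2 fold change of each tested gene (1 point a gene, coloured by the test) in the family or pathway of each marker, with the list median (black line) and the markers themselves (open diamonds). Of the markers, Fabp7 and Emid1 lie to the left of their list medians and the others to the right, and the glutamate and filament lists lie mostly to the left of 0.

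Levels of different markers were compared per kb of exon. In control the order was S100a1 (2249 ± 311 CPM per kb), Glul (77.7 ± 5.96), S100b (40.8 ± 3.92), Fabp7 (34.1 ± 3.07), Emid1 (30.9 ± 1.79), Slc1a3 (23.2 ± 1.06), Aqp4 (10.8 ± 0.31), Bace2 (1.83 ± 0.06) and Gfap (0.33 ± 0.07). Fabp7 and Emid1 were the only neighbours in that order whose ranges overlapped. After neomycin S100b (75.3 ± 3.97 CPM per kb) stood above Glul (66.3 ± 1.73), with no overlap between them, and no other pair changed places. S100a1 was 28.9 times Glul in control and 41.0 times S100b after neomycin.

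S100a1 thus carried most of the summed level of the panel. The 9 markers summed to 2131, 2220 and 2528 CPM in control and 2847, 2867 and 3040 CPM after neomycin, and S100a1 held between 65.3% and 71.4% of that sum in control and between 72.0% and 75.2% after neomycin. Without S100a1 the other 8 markers summed to 740, 733 and 724 CPM in control and 797, 774 and 753 CPM after neomycin. With scaling by total counts, a check added after the data were seen, the 8 summed to 772, 758 and 720 CPM in control and 795, 750 and 725 CPM after neomycin, so the groups overlapped. Per kb, S100a1 stood at 47.5, 58.8 and 59.2 times S100b in control and 37.1, 41.9 and 44.4 times after neomycin, so the ratio was lower in every neomycin library than in every control library.

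**Figure D4:**
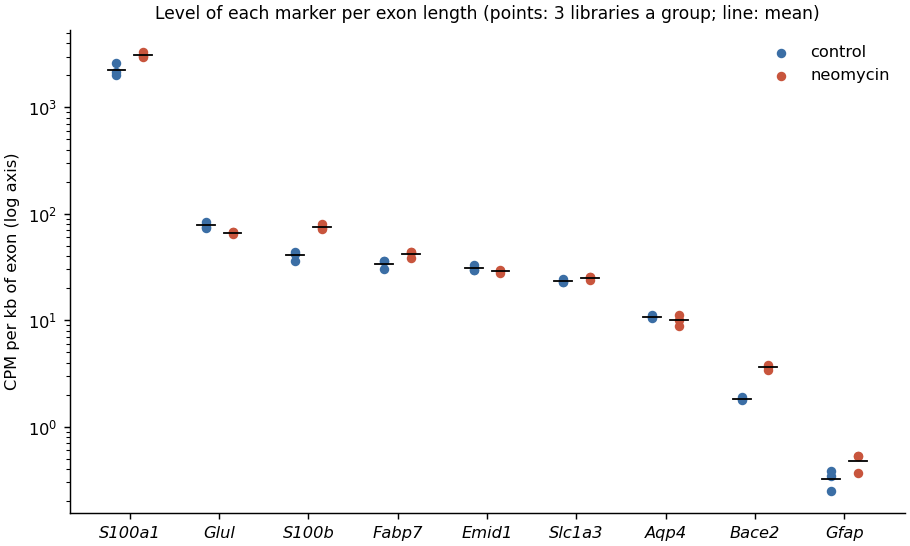
CPM per kb of exon of each marker in each library (points) with the group mean (line), on a log axis, control in blue and neomycin in red. The mean of S100a1 lies 28.9 times above the next marker in control, and S100b passes Glul after neomycin.

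The genes most like each marker over the 6 libraries were picked by Pearson correlation of log2 CPM among 10383 genes with a mean of at least 10 CPM. The 6 points share the division into groups, so these values only describe the libraries. S100b was nearest to Qpct (r = 0.999), Babam1 (0.998) and Pccb (0.997), and Bace2 to Srgn (0.998), Umodl1 (0.998) and Dnttip1 (0.997). Qpct, which encodes a glutaminyl cyclase, went from 19.4 ± 3.09 to 55.8 ± 5.46 CPM, and Umodl1 from 9.36 ± 1.01 to 57.7 ± 8.11 CPM. S100b and Bace2 had r = 0.986 with each other. The nearest genes were Mrps10 to S100a1 (0.999), Rnf135 to Fabp7 (0.998), Dcbld2 to Glul (0.995), Lrrc14 to Slc1a3 (0.994), Zfp783 to Aqp4 (0.999), Gulp1 to Gfap (0.978) and Cdr2 to Emid1 (0.976).

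Lists of genes from other cells were set beside the markers. Of 29 further SC markers, 4 passed as higher and 8 as lower, with a median between -0.10 and 0.07 over the alternatives (main value -0.03). Sox2, the SC transcription factor, was at 79.4 ± 1.01 and 91.9 ± 9.40 CPM (adjusted p = 0.064), and Lgr5 at 29.4 ± 2.29 and 32.6 ± 2.45 CPM (adjusted p = 0.239). Lgr5 passed as higher without the length trend (0.33, adjusted p = 0.00666). Prox1, a pillar and Deiters cell factor, fell from 4.08 ± 1.12 to 1.49 ± 0.33 CPM, Fgfr3 from 165 ± 6.70 to 104 ± 8.87 CPM and Cyp26b1, which degrades retinoic acid, from 139 ± 4.41 to 79.6 ± 3.53 CPM. The 4 that passed as higher were Tectb, Gjb6, Fst and Cryab. Tectb went from 4230 ± 596 to 6445 ± 1520 CPM and Gjb6 from 106 ± 4.18 to 142 ± 1.36 CPM. With the length trend removed Cryab did not pass (adjusted p = 0.825). Over all genes tested, 12.9% passed as higher and 16.1% as lower. The SC list thus had members in both directions. Its count passing as higher was 7 by DESeq2 and 1 without control library 2, and the count passing as lower was 5 without neomycin library 2 or 3.

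Markers of astrocytes and radial glia were as mixed, with 4 of 28 higher, 7 lower and a median of -0.02, which the alternatives moved between -0.09 and 0.03. Aldoc (289 ± 30.2 and 277 ± 3.47 CPM) and Aldh1l1 (2.77 ± 0.56 and 3.14 ± 0.41 CPM) did not pass, and Ptprz1 fell from 41.1 ± 2.10 to 19.6 ± 0.99 CPM. This list shares Fgfr3, Gjb6, Sox9 and Sparcl1 with the SC list. Its count of lower genes was 4 without control library 1 or neomycin library 2 or 3. Among genes of reactive gliosis, 2 of 24 passed as higher and 7 as lower (median -0.12, between -0.19 and -0.06 over the alternatives). Lcn2, an acute-phase protein that reactive astrocytes secrete, was at 841 ± 162 and 304 ± 213 CPM, Serpina3n at 9.53 ± 2.52 and 3.98 ± 0.54 CPM and the complement gene C3 at 48.8 ± 10.8 and 13.8 ± 4.37 CPM, and all 3 were lower by the test. The 2 higher genes were Srgn (15.9 ± 1.12 to 41.3 ± 2.525 CPM, edgeR, adjusted p = 9.1e-07) and Gbp2 (2.45 ± 0.43 to 3.97 ± 0.63 CPM, adjusted p = 0.0259). Srgn was also the gene nearest to Bace2 by correlation. Gbp2 did not pass with the length trend removed (adjusted p = 0.0559). Cd44 and Timp1 did not pass (adjusted p = 0.978 and 0.570). The 7 were 4 without control library 2 and 3 without neomycin library 2, and the 2 were 1 without control library 1 or neomycin library 2 or 3 and 4 without neomycin library 1.

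Schwann and satellite glia could also hold these markers. Of their 18 tested genes none passed as higher and 3 as lower (median -0.06, between -0.135 and 0.02 over the alternatives), and the summed level of the list lay between 1060 and 1120 CPM in control and between 989 and 1060 CPM after neomycin. Sox10, a transcription factor of these glia that SCs share, was at 355 ± 21.7 and 347 ± 1.95 CPM and did not pass, while Erbb3 fell from 44.1 ± 9.59 to 23.6 ± 4.34 CPM. Without neomycin library 3, 1 gene of the list passed as higher, and without control library 3, 5 passed as lower. By DESeq2 and with no low count filter 1 passed as higher too. All of these fits tested 19 genes of the list. The main fit left out Gfra3, which had at most 44 counts in any library. The part of these glia in the change of S100b, Fabp7 or Glul was not tested.

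Macrophage markers moved the same way as S100b and Bace2. Of 14 tested, 9 passed as higher and none as lower, with a median of 0.59. With the length trend removed 6 passed as higher, the median was 0.36, and 2 in place of 7 were past the fold threshold. Their summed level lay between 133 and 171 CPM in control and between 192 and 243 CPM after neomycin. Summed levels rose in other lists too, but there a few abundant genes made up much of the sum. The SC list summed to 12600 to 14300 CPM in control and 15600 to 18800 CPM after neomycin. In it Epyc was at 5531 ± 249 and 6385 ± 203 CPM, beside Tectb. The astrocyte list went from 16500 to 18500 CPM to 19700 to 20200 CPM, with Clu at 11130 ± 909 and 12720 ± 495 CPM. The mesenchyme list went from 6700 to 7370 CPM to 7640 to 7670 CPM, with Lum at 2877 ± 138 and 3092 ± 153 CPM. Epyc, Clu and Lum did not pass the test. By gene these lists had members passing in both directions, unlike the macrophage list. Tyrobp rose from 10.8 ± 1.13 to 20.4 ± 4.30 CPM and Trem2 from 10.1 ± 0.99 to 17.97 ± 3.07 CPM, while Csf1r, which defines the lineage, was at 6.68 ± 0.47 and 6.45 ± 0.23 CPM (adjusted p = 0.799). Without the length trend Tyrobp, a short gene (0.67 kb), went from a log2 fold change of 0.93 to 0.53, no longer past the fold threshold. Trem2 stood at 0.87 in that fit. The part of macrophages in the change of any glia-like marker was not tested. Of the remaining lists, neurons had 3 of 16 higher and 4 lower, mesenchyme and fibrocytes 3 of 12 in each direction, stria and melanocytes 1 of 11 higher and 2 lower, and endothelium none of 10 higher and 6 lower. The neuron count of higher genes was 0 with scaling by total counts and without control library 2 or neomycin library 1 or 2 and 1 without control library 1, its count of lower genes was 7 without control library 3, the mesenchyme count of lower genes was 5 without control library 3, and the stria count of lower genes was 0 without control library 1 or neomycin library 2 or 3.

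**Figure D5:**
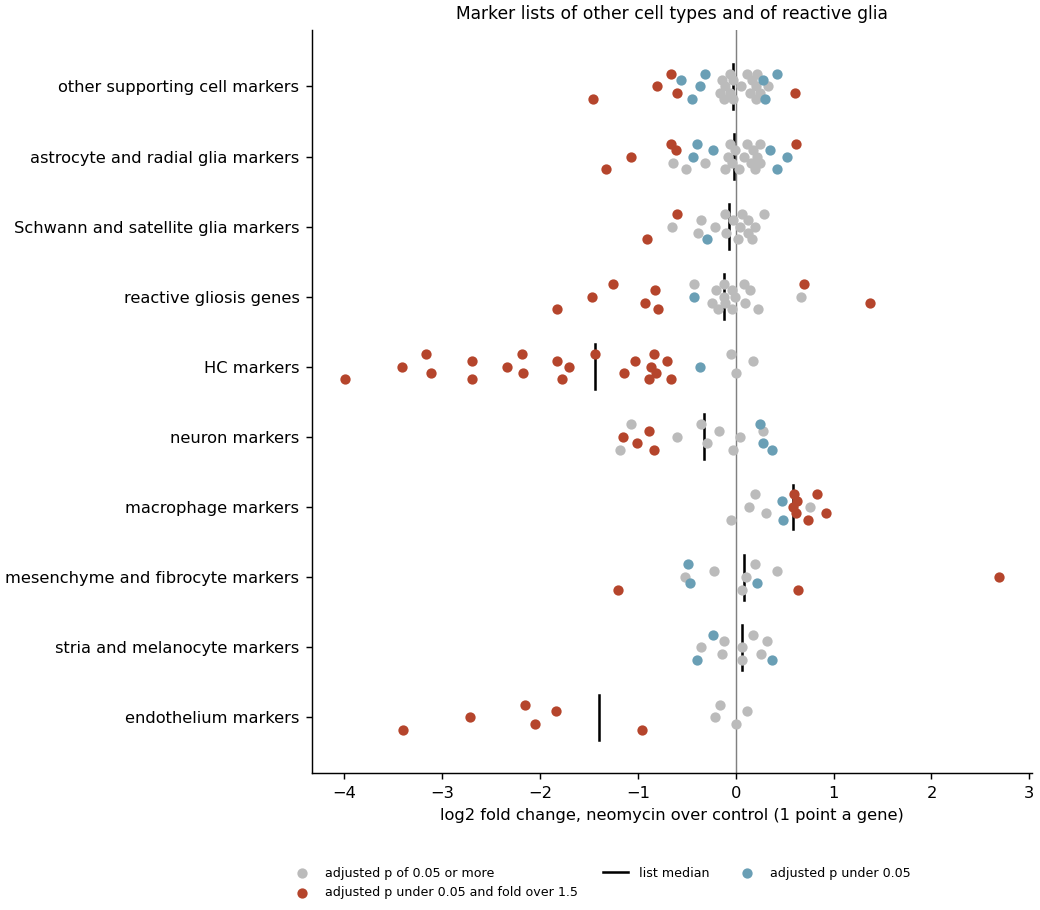
Log2 fold change of each tested gene (1 point a gene, coloured by the test) in marker lists of other cell types and of reactive glia, with the list median (black line). HC genes lie mostly to the left, 6 of 10 endothelium genes passed as lower, and macrophage genes lie mostly to the right. The SC and glia lists lie around 0.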

How the data were processed

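RNA was measured in 6 libraries of P2 mouse cochlear explants, 3 control and 3 neomycin, grouped by the treatment label. The authors called bases with CASAVA 1.8, trimmed reads with Trimmomatic 0.23, aligned them to mm10 with HISAT2 and counted them per gene with HTSeq, as the methods and the submitters' processing notes give it. The deposited values are raw counts of reads, 1 row a gene symbol, with no scaling applied. The strand setting, the handling of reads with several matches and the date of the annotation are not given in the sources used here, so overlapping genes may share reads. The series' design text names another cell type than the labels and was not followed.

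Libraries were scaled by TMM and filtered with filterByExpr in edgeR 4.0.16 (R 4.3.3). Neomycin was tested against control by the quasi-likelihood test with Benjamini-Hochberg adjustment over 15988 genes, and the thresholds were those of the study, which used DESeq2. Replicate libraries differed by more than counting noise. Exon lengths and coordinates came from a GENCODE annotation of the same build, and 99.2% of tested genes had a length. The length trend was removed by a lowess fit (span 0.3) of each library's log2 ratio on log2 exon length. Exon blocks are merged over transcripts. Alternatives were DESeq2 1.42.0, limma-voom (limma 3.58.1), other scalings and filters, the replicate number as a block, and each library left out in turn. The code was tested on simulated data.

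The named genes are the 9 markers, of each list the first 4 genes and the 2 called genes of at least 1 CPM with the largest change, and the 3 genes nearest to each marker by Pearson r. Gbp2 is named besides, because it passed as higher in the reactive gliosis list. Tectb, Gjb6, Fst and Cryab are named because they passed as higher in the SC list. Epyc, Clu and Lum are named for their high level and Gfra3 for its low counts. The markers and the lists were chosen with earlier results of these data known. Some genes that this rule names are not reported here. No test was run over a list. Plots used matplotlib 3.10.9 (Python 3.11.15).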

Additional observations from a re-analysis of the deposited data

How the results depend on the processing

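No marker changed direction under any of the 14 alternative settings. S100b (log2 fold change between 0.63 and 0.95) and Bace2 (between 0.91 and 1.11) passed in all 14. The number of markers that passed, 5, was 4 with scaling by total counts and 5 under the other tests, scalings, filters and the length correction, and between 2 and 5 when single libraries were left out, the lowest without control library 2. The number past a fold change of 1.5, 2, lay between 2 and 3 when single libraries were left out, with S100a1 added without control library 3, and was 0 at a fold change of 2. S100a1 did not pass with the length trend removed or without control library 2, and Fabp7 did not pass in 5 of the 14 settings and Glul in 5. Of 238 medians of the other lists, 32 moved by more than the spread between replicates, 8 of them with the length trend removed. Over all genes the count that passed, 4629, was 2567 without control library 2, 2518 without neomycin library 2 and 3001 without neomycin library 3. Same-numbered libraries of the groups deviated together with r = 0.165, 0.0264 and 0.0949. Each neomycin library was nearest to the control library of its own number. Control library 2, however, was nearest to neomycin library 3 (0.0325). The labels name no pairs and these values were low, so the numbers were not taken as pairs. Whether same-numbered libraries belong together was not tested. With the replicate block 5 markers passed and 2 were past the fold threshold, as without it, while the count over all genes was 6014 and 8 further SC markers passed as higher in place of 4, Sox2 (adjusted p = 0.0258) among them. Gfap had the fewest counts of the markers, 59 to 132 a library.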
